A study of Rattus norvegicus with 4 samples.

Results

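The amino acid and peptide transporters described here are 57 genes of 14497 measured. They were selected by gene symbol, as all members of the solute carrier (SLC) subfamilies 1, 3, 6, 7, 15, 36, 38 and 43 that had a single symbol in the platform annotation, and each had 1 probe set. The families were chosen on measured values of the same comparison, because Slc36a1 and Slc15a2 were among its largest falls. The values of these genes are therefore given as a description, with no test. RefSeq lists 66 protein-coding rat genes whose symbols fit, and the others were not analysed here. Subfamily 6 also holds the monoamine carriers Slc6a2, Slc6a3 and Slc6a4 and the creatine carrier Slc6a8, which do not carry amino acids.

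RNA came from primary cultures of embryonic rat hippocampal neurons. The 2 cultures of one group received an shRNA against Gld2 (gene symbol Tent2, a cytoplasmic poly(A) polymerase), and the 2 of the other received a scrambled shRNA. The arrays saw RNA that poly(U) Sepharose had retained and heat had eluted, so amount and tail-dependent recovery of a transcript cannot be told apart in any value below. The labels give neither the rat strain, nor the promoter behind the shRNA, nor whether a group's cultures were separate preparations, so p-values measure only how far these cultures spread, possibly for technical reasons. In such bulk cultures fewer cells of a type and less RNA per cell cannot be told apart either.

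SLC carriers move amino acids and small peptides across the plasma membrane and the lysosomal membrane, driven by sodium or proton gradients or by exchange. In brain they end glutamate, GABA and glycine signalling, pass glutamine from astrocytes to neurons, and supply cystine for glutathione. Carriers in the lysosomal membrane export the products of protein breakdown, and some of them take part in amino acid sensing by the kinase complex mTORC1.

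Tent2 stood at log2 RMA values of 9.50 and 9.35 after Gld2 shRNA against 10.73 and 10.67 after scrambled shRNA. The signal of the targeted transcript in the retained RNA was thus lower in both knockdown cultures. Between cultures of one group, the median absolute log2 difference over all probe sets was 0.106 (Gld2 shRNA) and 0.0753 (scrambled shRNA). Gld2 shRNA replicate 2 lay farther from the control mean than replicate 1 for 46 of the 57 transporters (80.7%) and for 68.3% of all genes.

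Slc36a1 and Slc15a2, on which the families were chosen, had the lowest differences of the transporters. Of the other 55, the sodium-coupled neutral amino acid carrier Slc38a2 and the brain proline carrier Slc6a7 fell past the threshold, and 53 did not pass. By limma with Benjamini-Hochberg adjustment over all 14497 genes, at a threshold of 0.05, 2 of these 55 (3.64%) were lower and 0 higher, against 2.41% of all genes called lower, 1.69% called higher and 4.1% called in either direction. With Slc36a1 and Slc15a2 the count was 4 of 57 (7.02%), and since the families were chosen from this comparison, nothing is read from either share. Slc15a2 dropped out of that count without scrambled shRNA replicate 1. At an unadjusted p under 0.05, 11 of the 57 were lower and 8 higher, and without moderation across genes 0 passed either way. The share of all genes at the unadjusted cut is not given here, so nothing is read from the 11 and 8. Both knockdown cultures lay below both controls for 26 transporters and above both for 13, while 34.5% and 24% of all genes did so. The median log2 difference (Gld2 shRNA minus scrambled shRNA throughout) was -0.05 over the transporters and -0.02 over all genes, with a range among transporters from -1.32 to 0.48.

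**Figure D1:**
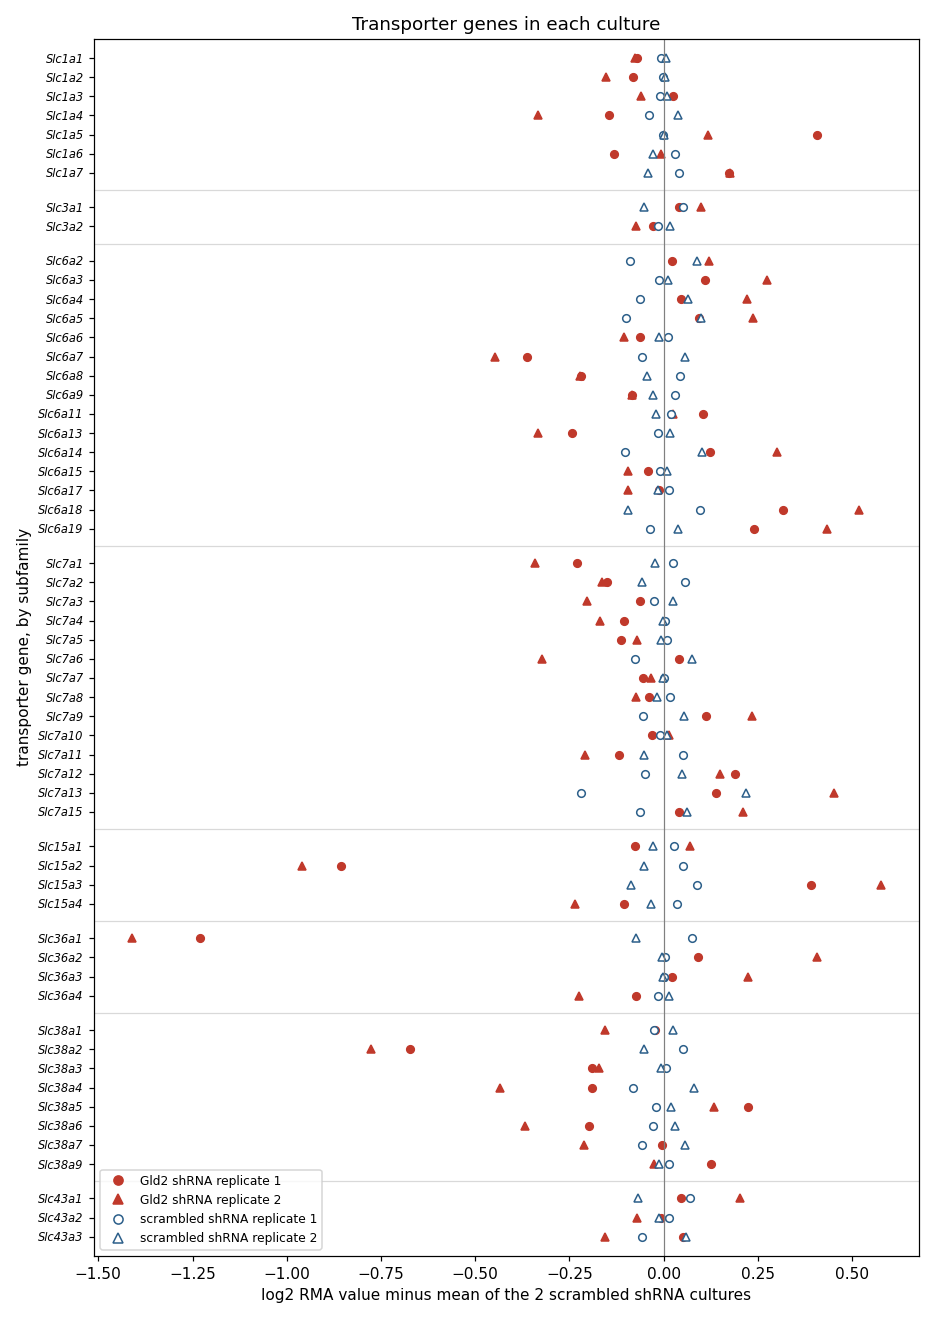
Log2 RMA value of each of the 57 transporter genes in each culture, minus the mean of the 2 scrambled shRNA cultures (x axis), with genes by subfamily (y axis). Red filled symbols are Gld2 shRNA cultures and blue open symbols scrambled shRNA cultures. Slc36a1, Slc15a2 and Slc38a2 lie farthest to the left, and no other Gld2 shRNA value lies below -0.45.

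The proton-coupled amino acid carriers of subfamily 36 held the largest difference. Slc36a1 encodes a carrier of glycine, alanine and proline that works in lysosomes and at the plasma membrane. Its log2 RMA value was 10.68 and 10.50 with the knockdown and 11.98 and 11.83 in the controls. The groups were separated by a gap of 1.16, the mean difference was -1.32, and the knockdown cultures stood at 40.1% of the control level. Leaving out each culture in turn gave -1.41 to -1.23.

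No other member of the subfamily passed. Slc36a4, a carrier of proline and tryptophan, stood at 10.56 and 10.41 against 10.62 and 10.65 in the controls. Its difference of -0.15 had a 95% confidence interval from -0.33 to 0.03. Slc36a2 (0.25) and Slc36a3 (0.12) had low signals, between 7.20 and 7.61 in all 4 cultures, and did not pass. Slc36a2 was at 0.41 and passed without Gld2 shRNA replicate 1 (adjusted p = 0.0247, limma), and was at 0.09 without Gld2 shRNA replicate 2.

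The 250 bases before the annotated start of the 4 genes that were lower are shown so that their promoters can be compared. They come from RefSeq (build GRCr8), which gave a promoter for 44 of the 57 members, each read 5′ to 3′ on the gene's own strand. Capitals mark matches to a GC box or an E-box. Slc36a1 lies at chr10:39824785-39825034 (plus strand), Slc15a2 at chr11:77519315-77519564 (plus strand), Slc38a2 at chr7:129742620-129742869 (minus strand) and Slc6a7 at chr18:56737703-56737952 (minus strand).
Slc36a1: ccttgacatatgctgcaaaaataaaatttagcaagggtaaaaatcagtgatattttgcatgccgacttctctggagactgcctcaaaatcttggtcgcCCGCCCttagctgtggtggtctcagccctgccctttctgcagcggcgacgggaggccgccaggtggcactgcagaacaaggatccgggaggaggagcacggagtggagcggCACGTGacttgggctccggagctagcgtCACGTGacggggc
Slc15a2: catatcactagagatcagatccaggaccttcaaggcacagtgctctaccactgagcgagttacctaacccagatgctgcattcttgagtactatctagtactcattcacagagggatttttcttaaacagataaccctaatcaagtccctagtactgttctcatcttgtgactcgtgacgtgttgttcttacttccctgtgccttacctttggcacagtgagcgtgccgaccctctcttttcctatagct
Slc38a2: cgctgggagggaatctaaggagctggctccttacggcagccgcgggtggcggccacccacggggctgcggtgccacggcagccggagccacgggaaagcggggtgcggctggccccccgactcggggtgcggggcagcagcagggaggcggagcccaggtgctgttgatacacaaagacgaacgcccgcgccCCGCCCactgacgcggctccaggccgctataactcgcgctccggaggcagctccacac
Slc6a7: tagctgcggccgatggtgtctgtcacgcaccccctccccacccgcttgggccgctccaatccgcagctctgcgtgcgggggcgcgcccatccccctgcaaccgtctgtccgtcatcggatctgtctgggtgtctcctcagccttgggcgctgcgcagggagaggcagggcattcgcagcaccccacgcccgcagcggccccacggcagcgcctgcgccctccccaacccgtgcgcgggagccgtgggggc

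The 4 windows had no motif in common among the 6 searched on both strands. The E-box CACGTG, which is bound by factors such as TFEB, the regulator of lysosomal genes, occurred in Slc36a1 alone of the 4, at bases 41 to 36 and again at bases 13 to 8 before the start. At least 1 such match was found in 5.80% of 27457 rat promoters and in 6 of the 44 transporter promoters (Slc1a4, Slc1a6, Slc7a5, Slc36a1, Slc38a7 and Slc43a1), and 2 or more in 0.455% of all. The GC box GGGCGG, present in 32.4% of promoters, had a match in Slc36a1 (bases 152 to 147) and in Slc38a2 (bases 58 to 53), in each on the opposite strand. The CRE (TGACGTCA), the C/EBP-ATF element of amino acid response (TGATGNAA), the IRF element (AANNGAAA) and the TATA box (TATAAA) had no match in the 4 windows. The base composition also differed: Slc38a2 and Slc6a7 had 27 and 26 CpG dinucleotides, Slc36a1 had 15 and Slc15a2 had 5. These matches describe letters only and do not show that a factor binds.

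Of the 4 peptide carriers of subfamily 15, Slc15a2 had the lowest difference and Slc15a3 the highest. Slc15a2 encodes the proton-coupled di- and tripeptide carrier found in astrocytes and choroid plexus. It stood at 9.75 and 9.65 with the knockdown and at 10.66 and 10.55 in the controls. The groups did not overlap, with a gap of 0.80 and a mean difference of -0.91, and the knockdown cultures were at 53.3% of the control level. Leaving out each culture in turn gave -0.96 to -0.86. Slc15a1, the intestinal peptide carrier, had overlapping groups, and the 95% confidence interval of its difference ran from -0.19 to 0.18.

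Slc15a3 and Slc15a4 encode lysosomal carriers of histidine and peptides that are known mainly from immune cells. Slc15a3 was the highest of all transporters in difference, at 7.57 and 7.76 with the knockdown and 7.27 and 7.09 in the controls. Its difference of 0.48 (95% confidence interval from 0.25 to 0.72) lay just short of the threshold in limma (adjusted p = 0.0513). It passed in 3 of 12 alternatives to the reported comparison. In limma these were median centring of each array (adjusted p = 0.000383, difference 0.46) and a level-dependent prior variance (0.00928). Another was leaving out Gld2 shRNA replicate 1 (0.58), while leaving out replicate 2 gave a difference of 0.39. It did not pass with all probe sets tested or without moderation (adjusted p = 0.103 and 0.335, limma). Median centring also took Slc38a2 from an adjusted p of 0.00737 to 1.88e-08 in limma, at -0.73 and -0.75. A call gained there need not mean a larger difference. Slc15a4 stood at 9.75 and 9.62 against 9.89 and 9.82, a difference of -0.17 that did not pass. Beside these values, all 18 measured genes of the interferon response list rose, with a smallest difference of 1.30. Microglia and macrophage markers had a mean log2 value of 7.74 and 7.86 with the knockdown and 7.65 and 7.67 in the controls, with 11 of 12 above 0 and 0 past the threshold. The lowest of them was Ptprc, and 0 of the 12 had a mean signal above the median gene. Slc15a3 was dim too, in signal decile 3, and of the 5798 genes in deciles 1 to 4, 3809 lay above 0. The part of either list in the Slc15a3 difference was not tested.

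**Figure D2:**
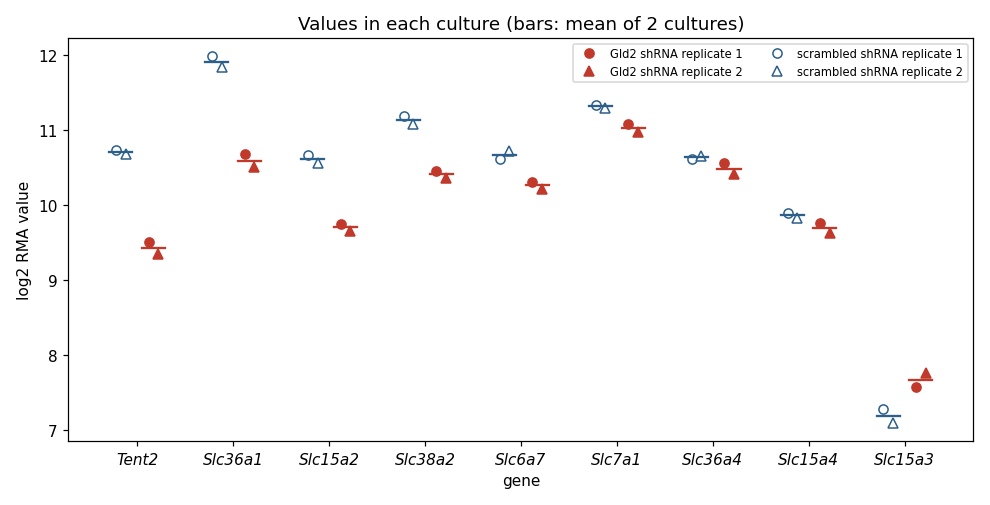
Log2 RMA value (y axis) of Tent2 and 8 transporter genes (x axis) in each culture, with Gld2 shRNA in red and scrambled shRNA in blue open symbols, and a bar at the mean of 2 cultures. The gap between groups is widest for Slc36a1 and Tent2, and Slc15a3 is the only one shown whose Gld2 shRNA values are the higher ones.

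Among the sodium-coupled neutral amino acid carriers of subfamily 38, Slc38a2 fell. It encodes a widely expressed carrier of alanine, glutamine and other small neutral amino acids whose transcript is known to be induced when amino acids are scarce. Its values were 10.46 and 10.35 with the knockdown and 11.18 and 11.08 in the controls. Both knockdown cultures lay below both controls by at least 0.62. The log2 difference was -0.73 (95% confidence interval from -0.90 to -0.55), or 60.5% of the control level, and limma gave an adjusted p of 0.00737. It no longer passed when scrambled shRNA replicate 1 or 2 was dropped (adjusted p = 0.115 and 0.0730) or without moderation across genes (0.254), and its adjusted p was 0.0188 or lower without either Gld2 shRNA culture, all in limma.

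Its closest relatives in the glutamine cycle did not pass. Slc38a1, the main glutamine carrier of neurons, stood at 11.60 and 11.47 against 11.60 and 11.65, and the groups overlapped. Slc38a3, through which astrocytes release glutamine, stood at 12.51 and 12.53 against 12.71 and 12.69. Its groups did not overlap, and its small difference of -0.18 (95% confidence interval from -0.33 to -0.04) missed the threshold at an adjusted p of 0.137 by limma. It passed in 2 of 14 alternatives. These were the fit with the dimmer genes dropped at the median level (adjusted p = 0.0345) and that with a level-dependent prior variance (0.00222), in limma.

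The lysosomal members of the subfamily differed little. Slc38a9, the arginine-sensing carrier that signals to mTORC1, had overlapping groups between 9.99 and 10.14, and Slc38a7, a lysosomal glutamine carrier, stood at 10.23 and 10.02 against 10.17 and 10.29. Slc38a4 (-0.31) and Slc38a6 (-0.28) were lower in both knockdown cultures than in both controls, yet did not pass (adjusted p = 0.140 and 0.104, limma). Slc38a4 passed in 2 of 13 alternatives and Slc38a6 in 3 of 13. Both passed with median centring, at little changed differences of -0.33 and -0.31, and without Gld2 shRNA replicate 1, at -0.43 and -0.37. Slc38a6 passed also with a level-dependent prior variance. Slc38a5 stood at 6.78 and 6.68 against 6.53 and 6.57, at low signal.

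Of 15 members of subfamily 6, the sodium- and chloride-dependent neurotransmitter carriers, 1 fell. Slc6a7, the proline carrier of glutamatergic nerve terminals, stood at 10.30 and 10.22 with the knockdown and 10.61 and 10.72 in the controls. The groups were 0.31 apart at their nearest values. The log2 difference was -0.40 (95% confidence interval from -0.58 to -0.23), and the adjusted p was 0.0417 by limma. This call was fragile: it was lost when Gld2 shRNA replicate 2 was dropped (adjusted p = 0.105), when scrambled shRNA replicate 1 or 2 was (0.241 and 0.288), with all probe sets tested (0.0918), with the replicate numbers of the titles as a block (0.0532) and without moderation (0.295), in limma. Excitatory neuron markers had a mean log2 value of 11.71 and 11.68 in the knockdown cultures and 11.86 and 11.81 in the controls. Of these 8 markers, 7 lay below 0 (median -0.09). Prox1 (-0.59) alone was past the threshold (12.5% of the list, against 4.1% of all genes). Inhibitory neuron markers had a mean of 11.24 and 11.20 against 11.32 and 11.31, with 5 of 8 below 0 (median -0.11) and 0 past the threshold, and 65.8% of all genes in signal deciles 7 to 10 lay below 0. The lowest excitatory and inhibitory markers were Prox1 and Dlx1, and the part of either cell type in the Slc6a7 difference was not tested.

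The carriers of inhibitory transmitters did not pass. Slc6a9, the glycine carrier of glia, stood at 11.31 in both knockdown cultures against 11.42 and 11.37, and Slc6a5, the glycine carrier of glycinergic neurons, at 7.66 and 7.81 against 7.47 and 7.67. Among GABA carriers, the astrocytic Slc6a11 stood at 12.36 and 12.28 against 12.27 and 12.23. Slc6a13, which is found in the meninges, stood at 8.45 and 8.36 against 8.68 and 8.71, a difference of -0.29 with an adjusted p of 0.0709 by limma. Slc6a13 passed in 4 of 13 alternatives. In limma these were median centring (adjusted p = 0.0171), a level-dependent prior variance (0.0444) and dim genes under the 25th percentile left out (0.0314). Another was leaving out Gld2 shRNA replicate 1 (difference -0.33). Of 6 fibroblast and meningeal markers, 0 passed and 4 lay above 0, with a mean log2 value of 9.34 and 9.32 against 9.30 and 9.27. The lowest was Pdgfra, and the part of these cells in the Slc6a13 difference was not tested.

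Other carriers of subfamily 6 that are active in brain also stayed short of the threshold. The creatine carrier Slc6a8 was at 12.41 in both knockdown cultures and at 12.68 and 12.59 in the controls, with a difference of -0.22 and no overlap. It passed with a level-dependent prior variance and with the dimmer genes dropped at the median level. The taurine carrier Slc6a6 (-0.08) and the neuronal neutral amino acid carriers Slc6a15 (-0.07) and Slc6a17 (-0.05) differed less. In contrast, the carriers of kidney and intestine had values above 0 at low signal. Slc6a18 stood at 7.60 and 7.80 against 7.38 and 7.19, and Slc6a19 at 7.76 and 7.96 against 7.49 and 7.56. Their differences of 0.42 and 0.34 did not pass (adjusted p = 0.0786 and 0.0846, limma). Slc6a18 passed in 3 of 12 alternatives and Slc6a19 in 4 of 13. Both did so with median centring, where their differences were smaller (0.39 and 0.31), a level-dependent prior variance and without Gld2 shRNA replicate 1. Slc6a19 did so also with genes below the 25th percentile dropped. Slc6a14, another neutral and cationic amino acid carrier, was dim too (0.21). The monoamine carriers Slc6a2, Slc6a3 and Slc6a4 had differences of 0.07, 0.19 and 0.13, and Slc6a3 passed without Gld2 shRNA replicate 1.

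Subfamily 7 holds the cationic amino acid carriers and the light subunits that pair with the heavy subunits of subfamily 3, and none of its 14 members passed. Slc7a1, the main arginine and lysine carrier of most cells, stood at 11.08 and 10.97 against 11.34 and 11.29. Its groups did not overlap, and its difference of -0.29 had a 95% confidence interval from -0.45 to -0.12 and an adjusted p of 0.0794 by limma. It passed in 5 of 14 alternatives. In limma these were a level-dependent prior variance (adjusted p = 0.00161), either filter on dim genes (0.0133 and 0.0371) and median centring (0.0191). Another was leaving out Gld2 shRNA replicate 1 (difference -0.34). The cationic carriers Slc7a2 and Slc7a3 had differences of -0.16 and -0.13, and the related Slc7a4 one of -0.14.

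None of the exchangers that form with heavy subunits passed. Slc7a5, which carries leucine and other large neutral amino acids, stood at 12.91 and 12.95 against 13.03 and 13.01, and its heavy subunit Slc3a2 at 13.18 and 13.13 against 13.19 and 13.22. Slc7a11, the cystine-glutamate exchanger, was at 12.02 and 11.93 against 12.19 and 12.09, a difference of -0.16. It passed with a level-dependent prior variance (adjusted p = 0.0245, limma; 0.0854 to 0.677 under the others), and its difference ran from -0.22 to -0.04 over the alternatives. Slc7a10, which exchanges D-serine, was at 9.77 and 9.82 against 9.80 and 9.81. Slc7a8, Slc7a6 and Slc7a7 had differences of -0.06, -0.14 and -0.04. The pair of kidney cystine transport, Slc7a9 and its heavy subunit Slc3a1, had differences of 0.17 and 0.07 at low signal. Slc7a12, Slc7a13 and Slc7a15, likewise dim, lay between 0.13 and 0.30.

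None of the 7 members of subfamily 1, the high-affinity glutamate carriers and neutral amino acid exchangers, passed. The astrocytic glutamate carriers Slc1a2 and Slc1a3 stood at 12.26 and 12.19 against 12.34 and 12.35, and at 13.05 and 12.97 against 13.02 and 13.04. The neuronal carrier Slc1a1 stood at 11.79 and 11.78 against 11.85 and 11.87. The 95% confidence intervals of these 3 genes all lay between -0.27 and 0.14.

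The exchangers of alanine, serine and cysteine lay on opposite sides of 0. Slc1a4 stood at 11.40 and 11.21 against 11.51 and 11.58 (difference -0.24, adjusted p = 0.155, limma), and Slc1a5, which also carries glutamine, at 9.95 and 9.67 against 9.55 in both controls (0.26, adjusted p = 0.184, limma). Slc1a4 passed in 3 of 14 alternatives. These were a level-dependent prior variance, the dimmer genes dropped at the median level, and Gld2 shRNA replicate 1 left out. Slc1a6 and Slc1a7, known from Purkinje cells and retina, had differences of -0.07 and 0.17. In subfamily 43, the large neutral amino acid carriers Slc43a1 (0.13) and Slc43a2 (-0.04), and Slc43a3 (-0.05), had overlapping groups.

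The signs of the differences varied with the signal level. Of the 20 transporters in signal deciles 1 to 4, 18 had values above 0 (median 0.17), and of the 30 in deciles 7 to 10, 28 lay below 0 (median -0.11). Over all genes of the same deciles, 34.3% and 65.8% lay below 0, and the medians were 0.06 and -0.05. Probe sets differ in how strongly they bind, so these deciles rank signal and not transcript number. After cyclic loess between arrays, 18 of 20 and 27 of 30 transporters kept to these sides, with medians of 0.11 and -0.08. Of all genes of these deciles, 44.6% and 51.1% then lay below 0, with medians of 0.02 and -0.003. With the trend with gene length removed, 0 of 20 low-signal transporters lay below 0 against 37.0% of all genes. Of the high-signal ones, 20 of 30 (66.7%) lay below 0 against 59.1% of all genes. Against the control mean, the 20 low-signal transporters had a median of 0.10 in Gld2 shRNA replicate 1 and 0.22 in replicate 2. All genes of those deciles had medians of -0.002 and 0.13, so the higher values in replicate 2 were not particular to transporters.

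**Figure D3:**
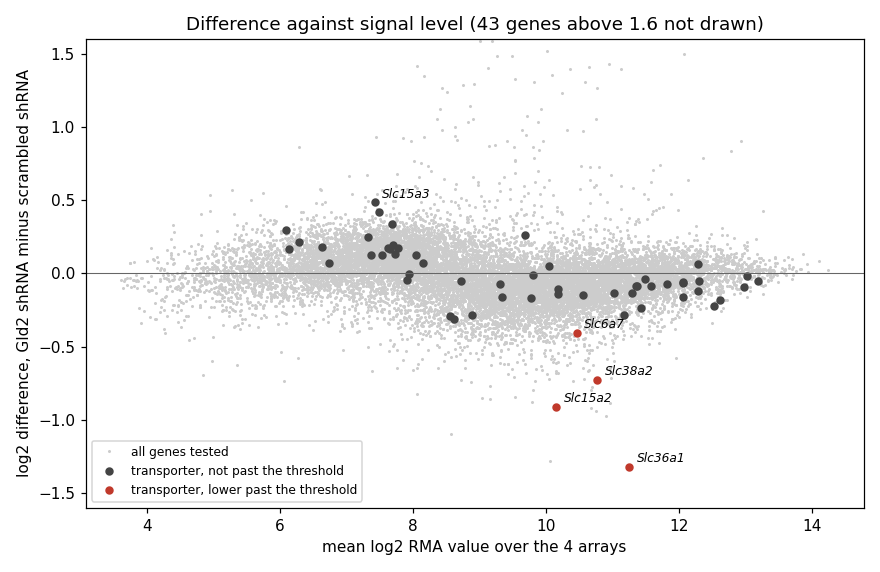
Log2 difference between groups (y axis) against the mean log2 RMA value over the 4 arrays (x axis) for all genes tested (grey) and the transporters (dark, or red where lower past the threshold). Transporters at low signal lie mostly above 0 and those at high signal mostly below 0, and 43 genes with differences above 1.6, none of them transporters, are not drawn.

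Transporter genes were also longer than most, spanning a median of 35659 bp of genome where the median gene spanned 18036 bp. Once the trend with gene length was removed, the median over the transporters went from -0.05 to 0.01, and 26 rather than 36 lay below 0. Slc38a2 and Slc6a7 were still past the threshold in that setting. Over cyclic loess, median centring and removal of the length trend, 46 of the 57 transporters kept their sign, and among the 11 that did not, Slc1a2 (-0.12) had the largest difference. Among them were Slc1a1, Slc1a2, Slc1a3, Slc6a6, Slc6a15, Slc6a17 and Slc43a2 (length trend) and Slc7a10 (cyclic loess).

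Several of these carriers belong to astrocytes, so astrocyte markers are given beside them. Of 9 measured, the gap junction gene Gja1 (-0.39) and the bicarbonate carrier Slc4a4 (-0.35) fell (22.2%, against 2.41% of all genes), and 0 rose. Next by p came the growth factor receptor gene Fgfr3 (-0.19), whose groups did not overlap, and S100b (0.11), and 6 of the 9 lay above 0, among them the defining markers Gfap (0.10) and Aqp4 (0.07). Their mean log2 value was 11.04 and 11.02 in the knockdown cultures and 11.07 and 11.08 in the controls, and the lowest was Gjb6, at 7.18 to 7.39. Choroid plexus and ependymal markers, of which 5 were measured, had 0 past the threshold and a mean value of 9.34 and 9.48 against 9.34 and 9.35. The part of these cells in the differences of Slc15a2 and Slc38a3 was not tested. Of the markers of other cells, 0 of 8 for radial glia, 0 of 8 for endothelial cells and pericytes and 0 of 6 for dividing cells passed. Of 8 for the oligodendrocyte lineage, Cnp rose (0.54) and 0 fell (12.5% called, against 4.1% of all genes).

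Other genes of amino acid handling, given as lists, mostly did not pass. Of 14 amino acid carriers outside these subfamilies, 0 rose and 0 fell by limma, and 0 had an unadjusted p under 0.05. Those with the smallest p were the mitochondrial glutamate carrier Slc25a22 (0.14), the lysosomal cationic amino acid carrier Slc66a1 (-0.12), the lysosomal sialic acid carrier Slc17a5 (0.09) and the aromatic amino acid carrier Slc16a10 (0.13). The vesicular glutamate and GABA carriers Slc17a7 (0.02), Slc17a6 (-0.07) and Slc32a1 (-0.07) are added for their role. Of 22 enzymes of glutamate, glutamine, GABA and glycine metabolism, 1 fell and 0 rose, or 4.55% called where 4.1% of all genes were. Aldh5a1, which completes GABA breakdown, fell (-0.48, adjusted p = 0.0317, limma), and 21 did not pass. The glutathione synthesis enzyme Gclc (-0.33), the serine synthesis enzyme Psph (-0.27) and the alanine transaminase Gpt2 (-0.38) came next by p. The median difference was -0.06 over these enzymes and -0.02 over the carriers.

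Of 22 genes of mTORC1 amino acid sensing at the lysosome, 1 fell and 0 rose, or 4.55% called where 4.1% of all genes were. The gene that fell was Sesn3, a member of the sestrin family (-0.44, adjusted p = 0.0280, limma). Among the 21 that did not pass were Tsc1 (-0.25), Mtor (-0.21) and Lamtor4 (0.20). Of 15 genes listed for the amino acid response, 2 fell and 1 rose, or 20% called where 4.1% of all genes were. That response acts through the kinase encoded by Eif2ak4 and the factor encoded by Atf4. Among the called genes, Eif2ak3 and Eif2ak2 encode other kinases, so the share describes the list and not that response. Trib3 (-0.45), a target of that response, and Eif2ak3 (-0.40), the kinase of the endoplasmic reticulum stress response, fell. Eif2ak2, the RNA-activated kinase and an interferon-induced gene, rose by 1.52. Atf4 itself stood at 12.01 and 12.09 against 12.08 and 12.05, Asns, a target of Atf4 counted with the enzymes above, at 12.34 and 12.27 against 12.32 and 12.39, and Eif2ak4 (-0.23) did not pass. Of 11 genes listed as partners of carriers, 1 rose and 0 fell, or 9.09% called against 4.1% of all genes. The receptor subunit genes Glra1, Glrb and Grin1 were among the 11. Emb rose (0.68, adjusted p = 0.00920, limma). Emb is a chaperone subunit of monocarboxylate carriers, which lie outside the subfamilies described here.

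**Figure D4:**
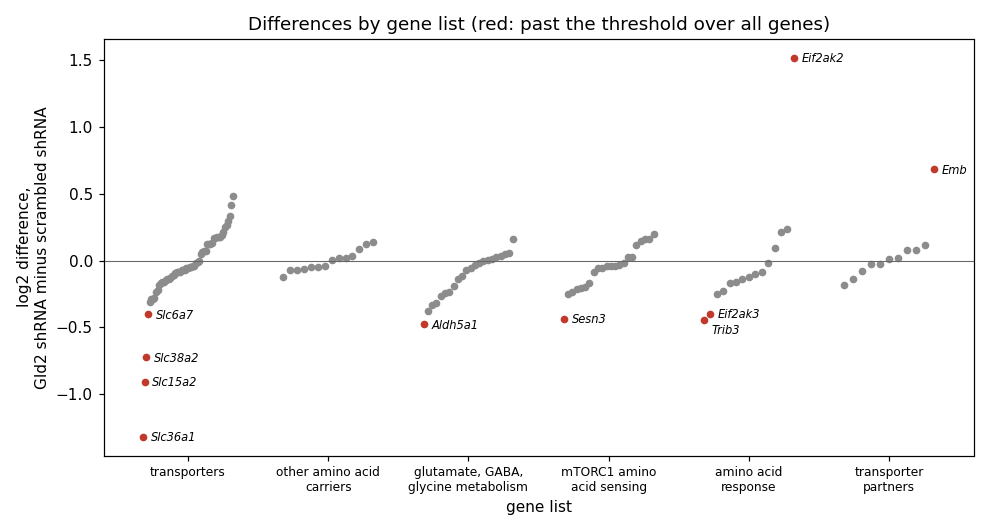
Log2 difference (y axis) of each gene in the transporter families and in 5 lists of related genes (x axis), ordered by size within a list, with genes past the threshold over all genes in red. Slc36a1, Slc15a2 and Slc38a2 lie below every other gene drawn, and the highest points are Eif2ak2 and Emb.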

How the data were processed

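Poly(A) RNA of 4 rat hippocampal cultures was hybridised to whole-transcript arrays. The authors deposited log2 values made with RMA and affy, per the submitters' processing notes, with versions, probe set definition and build not given in the sources used here. No counts or detection calls were used, so the number of arrays limits the precision. Of 28826 probe sets, 15209 had 1 gene symbol, and the brightest per gene gave 14497 genes, with no filter.

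Groups, taken from the treatment labels, were compared in limma 3.58.1 (R 4.3.3, lmFit and eBayes), two-sided, with Benjamini-Hochberg adjustment over all genes and 95% confidence intervals. The script was tested on simulated data. Named transporters were those past the threshold, the 5 largest other differences each way without overlap, and members of known role; from each list, those past the threshold and up to 4 by smallest p. Further members, list genes and markers are named for their role or to account for each subfamily, after their values were seen. Members, lists and alternatives were chosen with earlier results of these data known. Alternatives covered the prior variance, dim-gene filters, normalization, gene length (RefSeq spans, GRCr8), probe sets, pairing, moderation, thresholds and leaving out each culture. All 57 gene identifiers were found in RefSeq.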

Additional observations from a re-analysis of the deposited data

How the results depend on the processing

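The number of transporters lower past the threshold was 4 in the reported comparison, and rose to 11 with a level-dependent prior variance, to 8 with the dimmer genes dropped at the median level, to 8 with median centring and to 11 at an unadjusted p under 0.05, and was 0 without moderation across genes. Leaving out each culture gave 1 to 9. The number higher, 0 in the reported comparison, was 3 with a level-dependent prior variance, 1 with genes below the 25th percentile dropped, 3 with median centring, 3 at an adjusted p under 0.1 and 8 at an unadjusted p under 0.05, and leaving out each culture gave 0 to 5. The median difference moved from -0.05 to -0.11 with the dimmer genes dropped at the median level, where 33 transporters remained in the fit, and to 0.01 with the length trend removed, and ran from -0.07 to -0.03 without 1 culture. The difference of Slc36a1 ran from -1.41 to -1.23 and that of Slc15a2 from -0.96 to -0.83 over all alternatives. The counts in this paragraph stand without the share of all genes under the same settings. They show only how the counts moved with the processing. Calls gained with median centring came at little changed differences, such as 0.48 and 0.46 for Slc15a3, and so need not mean larger ones.

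The labels give no pairing, and the final digits of the titles, used as a replicate block, gave 3 lower and 0 higher, with Slc6a7 just short of the threshold (adjusted p = 0.0532, limma). Deviations of same-numbered cultures correlated at 0.143 across genes. Of 448 values of 33 named transporters under the alternatives, 393 kept their sign and side of the threshold, 12 lost a call, 31 gained one and 12 changed sign, none of these past the threshold. Changing the prior variance, dim-gene filters, probe set handling, replicate block or moderation left each difference as it was. In those settings only the side of the threshold could move, so a kept sign there shows nothing. With the length trend removed the sign changed for Slc1a1 (0.0226), Slc1a2 (3.94e-05), Slc1a3 (0.0741), Slc43a2 (0.0189), Slc6a15 (0.0026), Slc6a17 (0.0094) and Slc6a6 (0.0068). Leaving out each culture took Slc1a3 from -0.0601 to 0.0252, Slc38a9 from -0.0251 to 0.127 and Slc7a10 from -0.0321 to 0.0147 (0.00073 without scrambled shRNA replicate 2), and cyclic loess gave 0.0725 for Slc7a10. The cause of these changes was not tested. With 2 cultures a group, small differences could not be resolved, and dim probe sets may lie near background.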
